A study of Solanum lycopersicum with 17 samples.

Results

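Floral buds of the male-fertile tomato line T-1082 were compared between stage 3 and stage 2, to ask which transcripts change from one stage to the next in buds that make pollen. The members are the 3 libraries of fertile stage 3 and the 3 of fertile stage 2, chosen by line and stage label, so 6 of the 17 libraries in all. The other libraries hold 2 of fertile buds at stage 1 and 3 at each of 3 stages of ms1035, a male-sterile tomato line. All are RNA-seq libraries from total RNA of floral buds of Solanum lycopersicum, extracted with TRIzol. The labels name no treatment. They number the stages without defining them by bud length or by pollen development, and they call the replicates biological without saying how many plants or buds each holds. The p-values below therefore speak for these samples only. Where libraries are paired by replicate number, they measure the spread of the change between stages over the 3 pairs, partly shared across genes.

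A floral bud holds sepals, petals, stamens and a pistil at once. Inside the stamen, the tapetum is the cell layer that feeds the developing pollen and then breaks down, while the petals grow and fill with yellow carotenoids and the outer tissues lay down cutin and defence proteins. Because whole buds were sequenced, fewer cells of a type and less RNA per cell cannot be told apart in any value below.

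The 6 libraries held 499608 to 817548 reads assigned to genes, and 18295 to 19320 of 34727 gene models had at least 1 read. The 10 most abundant genes took 4.22% to 5.95% of the reads. Levels are given as CPM, the reads of a gene per 1000000 assigned reads of its library. The labelled tissue was checked on floral organ identity genes: TAG1 (Solyc02g071730), a MADS-box gene that specifies stamens and carpels, was read in all 6 libraries at 462 to 805 CPM, and TAP3 (Solyc04g081000), a gene of petal and stamen identity, at 393 to 761 CPM. On the first principal component of the 6 libraries, which held 36.1% of the variance, stage 2 lay at -32.7 to -14.8 and stage 3 at -3.11, 47.5 and 30.8 for replicates 1, 2 and 3. Replicate 1 of stage 3 was thus the stage 3 library nearest to stage 2.

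Among 11514 genes tested, 194 (1.68%) were called at an adjusted p under 0.05 (edgeR quasi-likelihood with replicate number as a block, Benjamini-Hochberg). At stage 3, 126 (1.09%) were higher and 68 (0.591%) lower. At an unadjusted p under 0.05 there were 1573 of 11514 genes, the background for such counts in the lists below. The lower genes moved further: 38 of the 68 fell over 4-fold and their median log2 change was -2.16, against 26 of the 126 higher genes over 4-fold and a median of 1.40. Over all tested genes the median log2 change was -0.03.

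**Figure D1:**
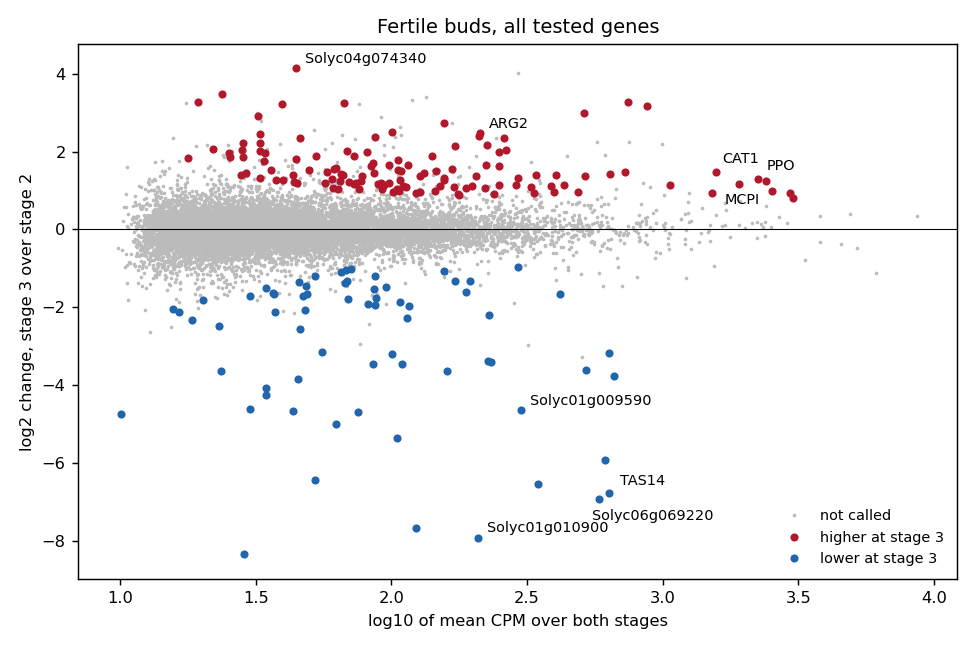
The log2 change from stage 2 to stage 3 (vertical axis) is plotted against the log10 of the mean CPM over both stages (horizontal axis), 1 point per tested gene of fertile buds. The 126 genes called higher (red) lie between 0 and 4.14, while the 68 called lower (blue) reach below -7; the lowest point, at -8.35, is a gene with 0 reads at stage 3, whose fitted value is not a bound.

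How many genes were called depended on single libraries. Leaving out replicate 1 raised the count, to 836 without its stage 2 library, 1095 without its stage 3 library and 886 without the pair. Leaving out replicate 2 gave 102, 135 and 102 in the same order, and leaving out replicate 3 gave 48, 83 and 74. The share of called genes that were higher, 64.9% with all 6 libraries, was 19.6% without the pair of replicate 2 and 24.3% without the pair of replicate 3. Without the replicate block 19 genes were called, 9 higher and 10 lower, and all 19 were among the 194. Of the 22 called genes named below, 5 were still called without the block, TAS14, ARG2, CAT1, Solyc01g010900 and Solyc08g076790. In a fit of all 17 libraries without the block 7 were, TAS14 and 6 models given by identifier (Solyc01g009590, Solyc01g010900, Solyc02g068400, Solyc04g074340, Solyc06g069220 and Solyc08g076790), and the other 15 had an adjusted p from 0.0603 to 0.784. In a fit of the 12 libraries of both lines CDI (0.0557), GPAT6 (0.0655) and LOXA (0.0509) lost their calls, and 2 of the 22 could not be fitted.

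Summed over the 68 lower genes, stage 2 replicates 1, 2 and 3 held 20272, 8315 and 22346 CPM and stage 3 replicates 3081, 2040 and 1950 CPM. Those sums separate the stages because the genes were called for it. What the calls did not use are the other groups. The same genes summed to 12609 and 33137 CPM in the fertile libraries of stage 1. In the 9 male-sterile libraries they summed to between 1328 and 3850 CPM, below each fertile library of stage 1. The sterile sums lay below those of fertile stage 2 as well, but the calls picked genes that were high there.

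The 126 higher genes summed to 22728, 18872 and 22782 CPM at stage 2 and to 46226, 53756 and 57673 CPM at stage 3. The step between these stages was fixed by the calls. In the fertile libraries of stage 1, which the calls did not use, they summed to 10704 and 14269 CPM. Those sums lay below every stage 2 sum, although the stage 2 values themselves went into the calls. In sterile buds they summed to 11696 to 15758 CPM at stage 1, to 40629, 15261 and 49991 CPM at stage 2 and to 69740, 27230 and 53537 CPM at stage 3.

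The called gene with the lowest adjusted p was TAS14 (Solyc02g084850), a dehydrin, one of the hydrophilic proteins that accumulate with abscisic acid, drought and drying. It was named after its values were seen. TAS14 stood at 2029, 1210 and 534 CPM in stage 2 replicates 1, 2 and 3 and at 19.2, 14 and 1.73 CPM in stage 3 replicates 1, 2 and 3. Each stage 2 library lay far above each stage 3 library, and sterile buds of stages 2 and 3 held 1.83 to 41.3 CPM. The means were 1258 ± 749 and 11.6 ± 8.96 CPM (SD, n = 3), a 109-fold fall (log2 -6.76, SE 0.29, edgeR adjusted p = 6.23e-06). TAS14 was called under all 17 alternatives, with adjusted p from 4.78e-118 to 0.0198. At fertile stage 1 it stood at 415 and 2855 CPM.

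Anther markers were the next group followed. The list holds 10 gene models recalled as regulators of the anther, genes of the tapetum and genes of anther opening; for 9 of them no source used here pairs the identifier with a name, so they are given by identifier and no role is stated. MYB80 (Solyc10g005760) is the 1 whose name could be checked, a MYB gene known in Arabidopsis for tapetum and pollen development. The 10 models together held 5558, 2280 and 13548 CPM at fertile stage 2 and 2377, 769 and 4542 CPM at fertile stage 3. In sterile buds of stages 2 and 3 they held 0 to 25.5 CPM, with 5 to 10 of the 10 models at 0 in each library. In fertile buds 5 of the 10 passed the filter on low reads, and 3 of these 5 were called lower and none higher, where 0.591% of all tested genes were called lower.

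Solyc06g069220 stood at 1936, 7.34 and 1526 CPM in stage 2 replicates 1, 2 and 3 and at 16.6, 2 and 8.66 CPM at stage 3. Replicate 2 of stage 2 was already low, so the stages overlapped, although the gene was lower at stage 3 in each of the 3 pairs. The fall was 121-fold (log2 -6.92, SE 0.44, edgeR adjusted p = 8.43e-05). Without the block the adjusted p was 0.103.

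Solyc01g009590 went from 695, 89.3 and 952 CPM to 42.2, 6 and 17.3 CPM. No stage 3 library reached a stage 2 library, and replicate 2 was again the lowest of both stages. The log2 change was -4.64 (SE 0.36, 24.9-fold, edgeR adjusted p = 0.000191). The call was lost in 1 of 17 alternatives, the fit without the block (adjusted p = 0.0723).

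Solyc08g062780 went from 429, 154 and 534 CPM to 161, 28 and 69.3 CPM. Replicate 1 of stage 3 lay just above replicate 2 of stage 2, so the stages overlapped by a single value. The log2 change was -2.19 (SE 0.29, 4.57-fold, edgeR adjusted p = 0.00721). It was not called without replicate 2 of stage 2 (adjusted p = 0.061), without replicate 3 of stage 2 (0.0764), without the pair of replicate 2 (0.0617) or without the block (0.242).

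The other tested models did not pass. Solyc03g053130 stood at 523, 75.8 and 1070 CPM at stage 2 and at 210, 16 and 13.9 CPM at stage 3, with a log2 change of -2.96 (SE 0.74, edgeR adjusted p = 0.089). Without the pair of replicate 1 it passed (edgeR adjusted p = 4.38e-11), in a fit with 1 residual degree of freedom. Solyc07g053460 stayed high in every library, with 1822, 1936 and 9231 CPM at stage 2 and 1931, 713 and 4426 CPM at stage 3. Its log2 change was -0.79 (SE 0.26, edgeR adjusted p = 0.2), and it was the model of the 10 that made up most of the stage 3 sum. In fertile buds of stage 1 the same model had 26.7 and 0 CPM, while each of the other 9 had reads in both stage 1 libraries.

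The remaining 5 models had too few reads to be tested, and their reads are given without a test. MYB80 had 38.9, 0 and 50.3 CPM at stage 2 and 1.28, 0 and 0 CPM at stage 3, which is 65 reads against 1 and a ratio of reads per total of 52.9 (exact 95% binomial interval 9.16 to 2121). Replicate 2 had no MYB80 read at either stage. Solyc04g008420 had 39, 2 and 39 reads in stage 2 replicates 1, 2 and 3 and 0 at stage 3. Pooled, 80 reads against 0 made it at least 21.7-fold lower when the 0 is taken as at most 3 reads over the group. Solyc01g081100 had 92 reads (26, 11 and 55) against 13, and Solyc03g113530 57 (23, 1 and 33) against 5. Solyc02g079810 had 2 against 0. Counting error alone is covered by such a bound or interval.

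**Figure D2:**
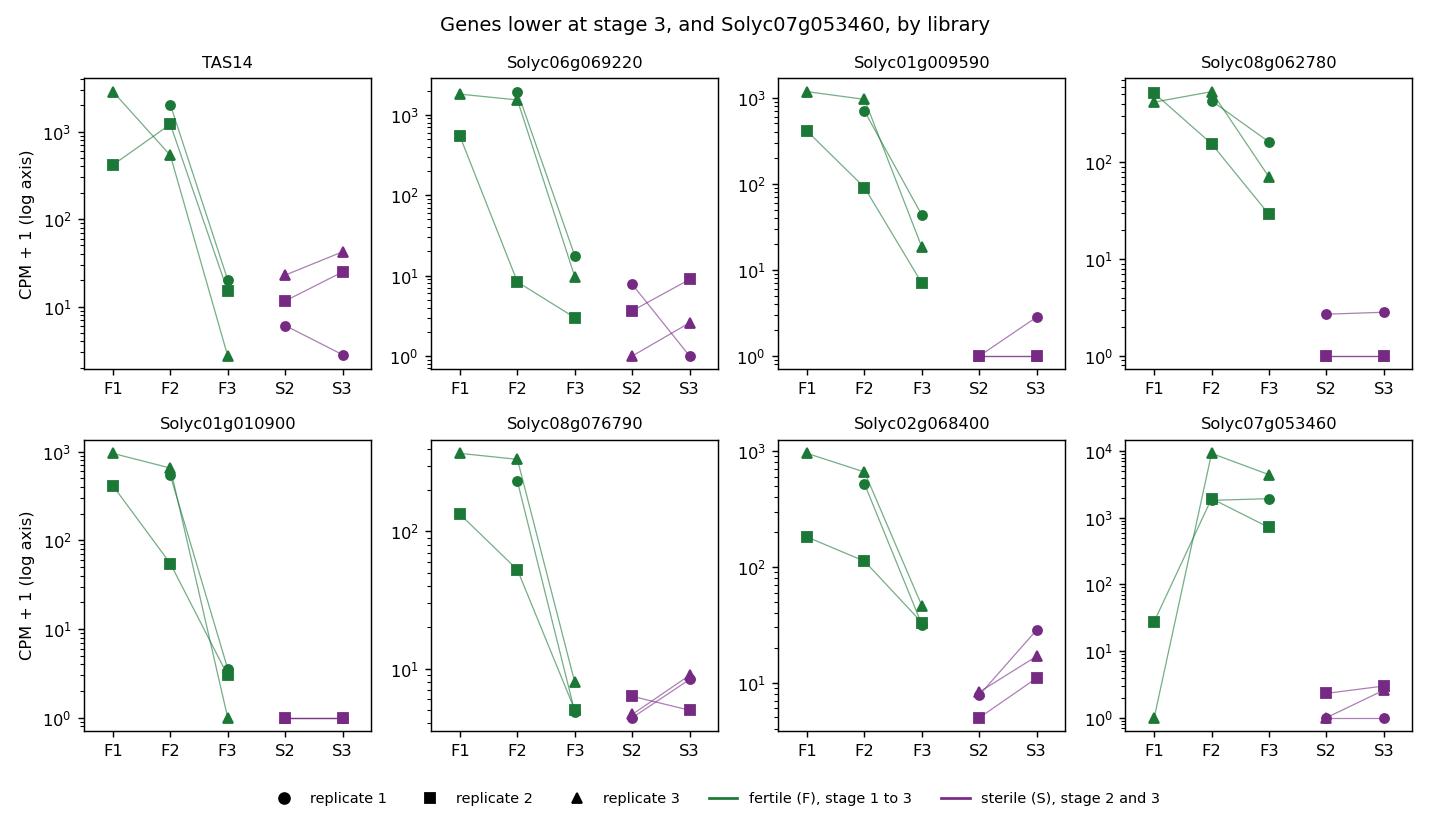
CPM plus 1 on a log axis for 8 genes in fertile buds (F, green) of stages 1 to 3 and sterile buds (S, purple) of stages 2 and 3, 1 point per library with lines joining libraries of the same replicate number; axis ranges differ between panels. TAS14 falls from 534 to 2029 CPM at F2 to 1.73 to 19.2 CPM at F3, whereas Solyc07g053460 stays between 713 and 9231 CPM over F2 and F3 after 26.7 and 0 CPM at F1.

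Outside the lists, the largest falls were in 2 models that no source used here names. Solyc01g087180 had 84.3, 73.4 and 14.4 CPM at stage 2 and no read in any stage 3 library. It was at least 36.6-fold lower (135 reads against at most 3 over the group, edgeR adjusted p = 0.00201). Its call was lost without the block (adjusted p = 0.0602) and in DESeq2 (adjusted p = 0.0601). Solyc01g010900 had 538, 53.8 and 652 CPM against 2.56, 2 and 0 CPM. That is 913 reads against 3, a ratio of reads per total of 248 (exact 95% interval 84.5 to 1203, edgeR adjusted p = 8.43e-05). The 6 sterile libraries of stages 2 and 3 held 0 reads of Solyc01g010900, and it was called under all 17 alternatives.

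Genes of defence against insects were among those that rose. Leaves, flowers and fruits of tomato store enzymes and inhibitors that act in the gut of a feeding insect: arginase and threonine deaminase degrade amino acids there, polyphenol oxidase links proteins to quinones, and proteinase inhibitors block digestion. Of the 5 wound and defence genes with a checked name, 2 rose and none fell, where 1.09% of all tested genes were called higher and 0.591% lower. Their median log2 change was 0.46 and all 5 values were above 0, against a median of -0.03 and 47.4% above 0 over all tested genes. DESeq2 and limma-voom also called 2 of the 5.

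ARG2 (Solyc01g091170), an arginase gene, stood at 49.3, 69.7 and 80.4 CPM at stage 2 and at 341, 374 and 360 CPM at stage 3. Within each stage the libraries lay close together, and no stage 2 library came near a stage 3 library. The means were 66.5 ± 15.8 and 359 ± 16.5 CPM (SD, n = 3), a 5.53-fold rise (log2 2.47, SE 0.21, edgeR adjusted p = 0.000334). ARG2 was called in 16 of 17 alternatives, and in the fit of all 17 libraries without a block its adjusted p was 0.114. In sterile buds it stood at 609, 52.9 and 536 CPM at stage 2 and at 528, 175 and 358 CPM at stage 3, so sterile replicates 1 and 3 lay within or above the fertile stage 3 range at both stages. Its neighbour ARG1 (Solyc01g091160), the other arginase gene, had 31.6 ± 7.67 and 40.4 ± 7.41 CPM and did not pass (log2 0.35, SE 0.28, edgeR adjusted p = 0.633).

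PPO (Solyc08g074630), a gene of the polyphenol oxidase family, stood at 2482, 525 and 1328 CPM at stage 2 and at 3858, 2012 and 3259 CPM at stage 3. Over the 6 libraries 100% of its counted reads were unique. Every pair rose, but replicate 1 of stage 2 lay above replicate 2 of stage 3, so the stages overlapped. The log2 change was 1.30 (SE 0.24, 2.46-fold, edgeR adjusted p = 0.0306). The adjusted p of PPO was 0.158 without the pair of replicate 2, 0.165 without that of replicate 3, 0.116 to 0.29 without any 1 of their libraries and 0.549 without the block. TD (Solyc09g008670), the threonine deaminase gene, had 9296, 7853 and 5895 CPM at stage 2 and 12750, 8685 and 7599 CPM at stage 3 and did not pass (log2 0.34, SE 0.15, edgeR adjusted p = 0.373). In sterile buds TD was called higher at stage 3 (log2 1.38, SE 0.16, edgeR adjusted p = 0.00388), and the difference between the lines did not pass (edgeR adjusted p = 0.31).

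Both of the following inhibitor genes were named, or had their names checked, after their values were seen. MCPI (Solyc07g007250), a metallocarboxypeptidase inhibitor gene, rose from 1057, 1238 and 1259 CPM to 2384, 2180 and 3371 CPM. The stages did not overlap, and the change was 2.22-fold (log2 1.15, SE 0.18, edgeR adjusted p = 0.0126). CDI (Solyc03g098790), a cathepsin D inhibitor gene, went from 2226, 1646 and 2702 CPM to 4141, 2394 and 5047 CPM, with replicate 2 the lowest of each stage and a single overlap between the stages (log2 0.80, SE 0.16, edgeR adjusted p = 0.0438). MCPI was not called without the pair of replicate 3 (adjusted p = 0.197), without either of its libraries (0.251 and 0.219 for stages 2 and 3) or without the block (0.103). CDI was not called without the pair of replicate 2 (0.125), the pair of replicate 3 (0.457), any 1 of their libraries (0.0792 to 0.479) or the block (0.477), nor in DESeq2 (0.265). Solyc03g020080, a model of the wound list whose recalled name could not be checked, was called higher too (log2 1.65, SE 0.27, edgeR adjusted p = 0.0161), but not without the pair of replicate 2 (0.102), the pair of replicate 3 (0.0857) or the block (0.16), nor in the fit of all 17 libraries (0.626).

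Lipoxygenases and a catalase, also named after their values were seen, rose as well. LOXC (Solyc01g006540), a lipoxygenase gene that feeds the synthesis of fatty-acid volatiles, stood at 86.9, 93 and 90.5 CPM at stage 2 and at 203, 222 and 239 CPM at stage 3. The replicates of each stage lay close together, with means of 90.1 ± 3.03 and 221 ± 17.8 CPM (SD, n = 3; log2 1.31, SE 0.18, edgeR adjusted p = 0.00851). LOXA (Solyc08g014000), a lipoxygenase gene of another branch, rose from 46.7, 25.7 and 23 CPM to 90.8, 100 and 83.1 CPM (log2 1.55, SE 0.26, edgeR adjusted p = 0.0184). LOXC was not called without the pair of replicate 3 (adjusted p = 0.077), either library of that pair (0.143 and 0.0791 for stages 2 and 3), replicate 2 of stage 2 (0.0582) or the block (0.0561). LOXA was not called without the pair of replicate 2 (0.131), the pair of replicate 3 (0.111), any 1 of their libraries (0.115 to 0.199) or the block (0.0906), nor in DESeq2 (0.0601). In sterile buds LOXC was called higher at stage 3 too (log2 1.09, SE 0.17, edgeR adjusted p = 0.0379), whereas LOXA had 367, 75.4 and 312 CPM at sterile stage 2 and 317, 177 and 183 CPM at sterile stage 3.

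CAT1 (Solyc12g094620), a catalase gene, whose product removes hydrogen peroxide, rose from 802, 892 and 788 CPM to 2115, 2036 and 2753 CPM. All 3 stage 3 libraries lay above all 3 stage 2 libraries. The change was 2.79-fold (log2 1.48, SE 0.18, edgeR adjusted p = 0.0038). CAT1 was not called without replicate 3 of stage 2 (adjusted p = 0.116), replicate 3 of stage 3 (0.0864) or their pair (0.0719).

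Jasmonate is the hormone that switches on tomato wound defence and, in Arabidopsis, is needed for anther opening and stamen growth. None of the 9 genes of jasmonate synthesis and signalling with checked names was called by edgeR, DESeq2 or limma-voom. In edgeR 3 of them had an unadjusted p under 0.05, against 1573 of 11514 over all tested genes. The 9 values lay between 0.00 and 2.74 with a median of 0.26, against -0.03 over all tested genes. LOXD (Solyc03g122340), the lipoxygenase gene of wound-induced jasmonate synthesis, stood at 487 ± 349 and 436 ± 211 CPM (SD, n = 3; log2 0.00, SE 0.18, edgeR adjusted p = 0.998). AOC (Solyc02g085730), the allene oxide cyclase gene, stood at 201 ± 44.4 and 292 ± 17.8 CPM (log2 0.58, SE 0.18, edgeR adjusted p = 0.175).

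MYB21 (Solyc02g067760), a jasmonate-responsive MYB gene that in Arabidopsis acts in stamens and petals, had the highest value of the list. It stood at 104, 12.2 and 24.4 CPM at stage 2 and at 123, 426 and 310 CPM at stage 3, after 0 CPM in both fertile libraries of stage 1. All pairs were higher at stage 3, but replicate 1 by little, and its stage 2 value was the highest of that stage. The log2 change of 2.74 (SE 0.71) did not pass (edgeR adjusted p = 0.0995). Without the pair of replicate 1, in a fit with 1 residual degree of freedom, its edgeR adjusted p was 3.22e-14. JAZ2 (Solyc12g009220), a repressor gene of jasmonate signalling that is itself induced by jasmonate, was higher in each pair, at 35, 149 and 23 CPM against 66.5, 204 and 71 CPM (log2 0.92, SE 0.24, edgeR adjusted p = 0.107). Like LOXD, it was highest in replicate 2 of each stage.

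The yellow of tomato petals comes from xanthophylls, carotenoids made from phytoene and stored in chromoplasts. Of the 13 petal carotenoid genes with checked names, 1 rose and none fell (7.69% called higher, against 1.09% of all tested genes). The values of 12 of the 13 were above 0, with a median log2 change of 0.70, and 8 had an unadjusted p under 0.05. The shares over all tested genes were 47.4% above 0 and 1573 of 11514 at such a p. DESeq2 called none of the 13 and limma-voom 4. CYCB (Solyc06g074240), a lycopene beta-cyclase gene of chromoplasts, was the called one. It rose from 10.4, 20.8 and 15.8 CPM to 39.6, 64.1 and 53.7 CPM, with no overlap (log2 1.76, SE 0.27, 3.4-fold, edgeR adjusted p = 0.0127). CYCB rests on 36 reads at stage 2, and it was not called without the pair of replicate 2 (adjusted p = 0.0816), the pair of replicate 3 (0.0655), any 1 of their libraries (0.0673 to 0.11) or the block (0.0906).

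Another 4 carotenoid genes, picked after their values were seen, shared 1 pattern over the libraries. Differences were large in the pairs of replicates 2 and 3 and small in that of replicate 1. ZISO (Solyc12g098710), a zeta-carotene isomerase gene not among the 4, showed it too. It had 35, 36.7 and 24.4 CPM at stage 2 against 25.6, 156 and 71 CPM at stage 3. CHRC (Solyc02g081170), a gene of a carotenoid-storing plastid protein, had 1305, 684 and 471 CPM at stage 2 and 1441, 4015 and 3198 CPM at stage 3. Its stages did not overlap, yet the log2 change of 1.88 (SE 0.44) did not pass (edgeR adjusted p = 0.0775). CRTR-B2 (Solyc03g007960), the carotene hydroxylase gene of flowers, had 96, 80.7 and 21.5 CPM against 87, 911 and 265 CPM (log2 2.35, SE 0.63, edgeR adjusted p = 0.11).

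PSY1 (Solyc03g031860), the phytoene synthase gene of chromoplasts, had 131, 69.7 and 56 CPM against 88.2, 570 and 163 CPM (log2 1.38, SE 0.54, edgeR adjusted p = 0.292), so that its replicate 1 was lower at stage 3. PDS (Solyc03g123760), the phytoene desaturase gene, had 89.5, 63.6 and 57.4 CPM against 109, 262 and 182 CPM, again with the smallest step in replicate 1 (log2 1.34, SE 0.31, edgeR adjusted p = 0.0704). Without the pair of replicate 1 these 4 genes passed, with an edgeR adjusted p of 9.42e-12 for CHRC, 5.53e-14 for CRTR-B2, 1.14e-08 for PSY1 and 1.77e-07 for PDS. That fit left out the pair in which the 4 differed least. It had 1 residual degree of freedom, so its p-values rest mostly on a spread shared across genes. Its common dispersion was 0.0213, against 0.0359 with all 6 libraries. MYB21 too differed least in the pair of replicate 1, and stage 3 replicate 1 was also the library nearest to stage 2 on the first principal component; whether these have a common source was not tested. Solyc01g098110, a model of the carotenoid list whose recalled name could not be checked, was called higher (log2 2.72, SE 0.45, edgeR adjusted p = 0.0183), but not without the pair of replicate 2 (0.18), the pair of replicate 3 (0.0665) or the block (0.0561), nor in the fit of all 17 libraries (0.103).

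**Figure D3:**
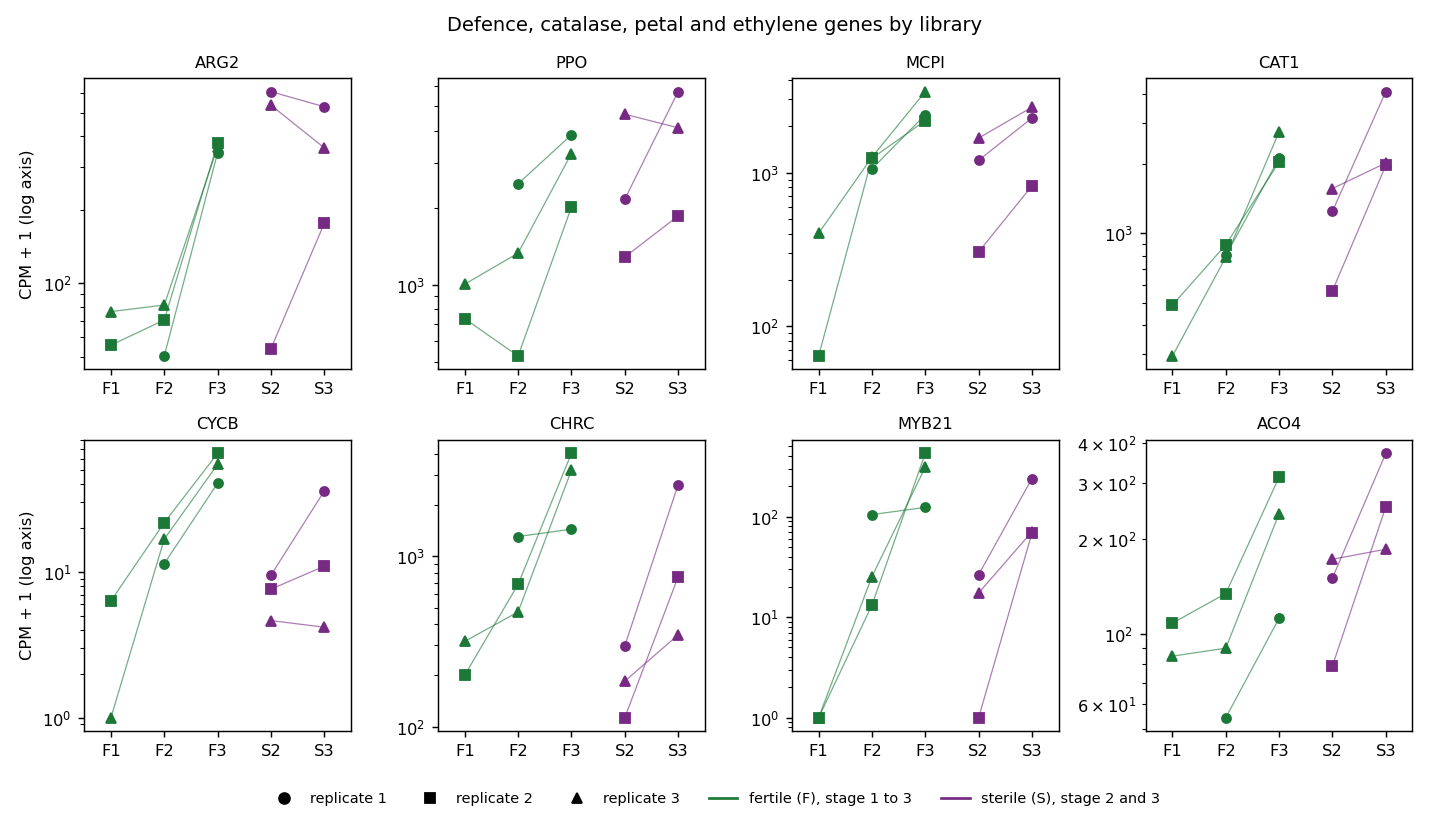
CPM plus 1 on a log axis for 8 genes in fertile buds (F, green) and sterile buds (S, purple), 1 point per library with lines joining libraries of the same replicate number; axis ranges differ between panels. ARG2 rises in all 3 fertile pairs from 49.3 to 80.4 CPM at F2 to 341 to 374 CPM at F3, while for CHRC and MYB21 the line of replicate 1 (circles) is nearly flat in fertile buds.

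Ethylene and gibberellin genes were followed next. Of the 8 ethylene genes tested with checked names, 1 rose and none fell, where 1.09% of all tested genes were called higher. The values of 4 of the 8 were above 0, against 47.4% of all tested genes, with a median log2 change of -0.03. ACO4 (Solyc02g081190), a gene of ACC oxidase, which makes ethylene, stood at 53.2, 133 and 89 CPM at stage 2 and at 111, 312 and 239 CPM at stage 3. Every pair rose by a similar factor, although replicate 1 of stage 3 lay below replicate 2 of stage 2 (log2 1.26, SE 0.19, 2.4-fold, edgeR adjusted p = 0.0109). ACO4 was not called without the pair of replicate 2 (adjusted p = 0.0743), the pair of replicate 3 (0.119), any 1 of their libraries (0.058 to 0.184) or the block (0.334). ACO1 (Solyc07g049530), another ACC oxidase gene, had 86.9, 350 and 73.2 CPM against 52.4, 168 and 50.2 CPM, lower in each pair (log2 -0.79, SE 0.20, edgeR adjusted p = 0.0919). The 5 ethylene receptor genes tested lay between -0.23 and 0.08.

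None of the 3 gibberellin genes tested was called by edgeR, DESeq2 or limma-voom. In edgeR 1 had an unadjusted p under 0.05, against 1573 of 11514 over all tested genes. GAST1 (Solyc02g089350), a gibberellin-stimulated gene, stood at 159 ± 31.5 and 277 ± 90.2 CPM (SD, n = 3; log2 0.77, SE 0.23, edgeR adjusted p = 0.158), and PROCERA (Solyc11g011260), the DELLA repressor gene of gibberellin signalling, at 168 ± 52.2 and 179 ± 34.7 CPM (log2 0.13, SE 0.19, edgeR adjusted p = 0.818). Among 5 repressors of fruit set, the genes that hold back ovary growth before pollination, 0 were called by the 3 tools and 1 had an unadjusted p under 0.05 in edgeR. IAA9 (Solyc04g076850) stood at 527 ± 30.5 and 445 ± 119 CPM (log2 -0.26, SE 0.21, edgeR adjusted p = 0.651).

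Cutin is the polyester of the plant surface. Of the 5 cutin and wax genes tested with checked names, 1 rose and none fell, where 1.09% of all tested genes were called higher. All 5 values were above 0, with a median log2 change of 0.59, against 47.4% above 0 and a median of -0.03 over all tested genes. GPAT6 (Solyc09g014350), a glycerol-3-phosphate acyltransferase gene of cutin synthesis, rose from 105, 82 and 97.6 CPM to 159, 222 and 239 CPM. The stages did not overlap and replicate 1 rose least (log2 1.12, SE 0.22, 2.17-fold, edgeR adjusted p = 0.0362). GPAT6 was not called without the pair of replicate 2 (adjusted p = 0.212), the pair of replicate 3 (0.238), any 1 of their libraries (0.186 to 0.35) or the block (0.121), nor in DESeq2 (0.156). Of the 3 tested models of this list without a checked name, limma-voom called Solyc08g081220 (adjusted p = 0.0428), which had a log2 change of 1.09 (SE 0.25) and an adjusted p of 0.0646 in edgeR.

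Steroidal glycoalkaloids are the bitter defence compounds of green tomato tissues. All 9 genes of their synthesis tested had log2 changes below 0, from -0.66 to -0.31 with a median of -0.48. Over all tested genes 6056 of 11514 were below 0, with a median of -0.03. Without the pair of replicate 2, GAME4 (Solyc12g006460) and GAME18 (Solyc07g043500) stood above 0, each at 0.11. None of the 9 was called by edgeR, DESeq2 or limma-voom. In edgeR 4 had an unadjusted p under 0.05, against 1573 of the 11514. GAME11 (Solyc07g043420), a dioxygenase gene of the pathway, had 4900, 6483 and 6757 CPM at stage 2 and 4647, 3251 and 5109 CPM at stage 3 (log2 -0.47, SE 0.19, edgeR adjusted p = 0.307). GAME12 (Solyc12g006470), the transaminase gene, had 1104, 1419 and 1172 CPM against 1160, 628 and 852 CPM (log2 -0.50, SE 0.23, edgeR adjusted p = 0.372). In both genes replicate 2 held the lowest value of stage 3 and replicate 1 changed least.

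Floral organ identity genes, the MADS-box genes that tell petals, stamens and carpels apart, were not called by any of the 3 tools in 10 tested. In edgeR 2 had an unadjusted p under 0.05, against 1573 of 11514 over all tested genes. TM29 (Solyc02g089200), a SEPALLATA-type gene, stood at 560 ± 178 and 673 ± 85.6 CPM (SD, n = 3; log2 0.32, SE 0.19, edgeR adjusted p = 0.505). TAG1 stood at 589 ± 188 and 588 ± 90.1 CPM (log2 0.05, SE 0.23, edgeR adjusted p = 0.952). TAP3 had 393, 473 and 414 CPM against 491, 761 and 734 CPM, without overlap (log2 0.63, SE 0.18, edgeR adjusted p = 0.14).

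The remaining lists held no gene with a checked name that edgeR, DESeq2 or limma-voom called. Their counts at an unadjusted p under 0.05 stand against 1573 of 11514 over all tested genes. Of the 4 tested genes of sucrose cleavage, 2 had an unadjusted p under 0.05 in edgeR; SUS1 (Solyc12g009300), a sucrose synthase gene, had a log2 change of 0.28 (SE 0.18) and TIV1 (Solyc03g083910), a vacuolar invertase gene, of 0.65 (SE 0.26). Among 6 flavonoid genes 1 had such a p; CHS2 (Solyc05g053550), a chalcone synthase gene, stood at -0.01 (SE 0.17) and F3H (Solyc02g083860), a flavanone hydroxylase gene, at 0.08 (SE 0.18) on the log2 scale. Solyc05g052240, a model of the flavonoid list without a checked name, had a log2 change of 0.91 (SE 0.20), with an adjusted p of 0.0555 in edgeR and 0.0299 in limma-voom.

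Of the 7 photosynthesis genes 0 had an unadjusted p under 0.05. Their most abundant members RBCS3A (Solyc02g085950) and RBCS2A (Solyc03g034220), which encode the small subunit of Rubisco, had log2 changes of 0.34 (SE 0.16) and 0.20 (SE 0.16). The 2 heat stress factors HsfB1 (Solyc02g090820) and HsfA1 (Solyc08g005170) stood at 0.51 (SE 0.25) and 0.14 (SE 0.24), with 0 of 2 at an unadjusted p under 0.05. The 3 tested models of the heat stress list without a checked name were all below 0, each with an unadjusted p under 0.05 in edgeR. Solyc08g062960 had a log2 change of -1.35 (SE 0.37, edgeR adjusted p = 0.115) and Solyc03g115230 of -0.89 (SE 0.28, edgeR adjusted p = 0.183). Solyc06g076520 had one of -0.83 (SE 0.19, edgeR adjusted p = 0.0606), and limma-voom called it (adjusted p = 0.0424).

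Cell cycle genes were negative in all 3 members tested, where 6056 of all 11514 tested genes were below 0. CDKB2 (Solyc04g082840), a mitotic cyclin-dependent kinase gene, had 41.5, 15.9 and 40.2 CPM at stage 2 and 23, 2 and 19 CPM at stage 3, lower in each pair (log2 -1.15, SE 0.35, edgeR adjusted p = 0.168, unadjusted p = 0.0088). CDKA1 (Solyc08g066330), a kinase gene active through the cell cycle, had a log2 change of -0.35 (SE 0.38). The reference genes EF1a (Solyc06g005060) and GAPDH (Solyc05g014470) had log2 changes of -0.18 (SE 0.17) and 0.07 (SE 0.17), and 0 of 4 reference genes had an unadjusted p under 0.05. No late pollen gene with a checked name passed the filter on low reads.

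**Figure D4:**
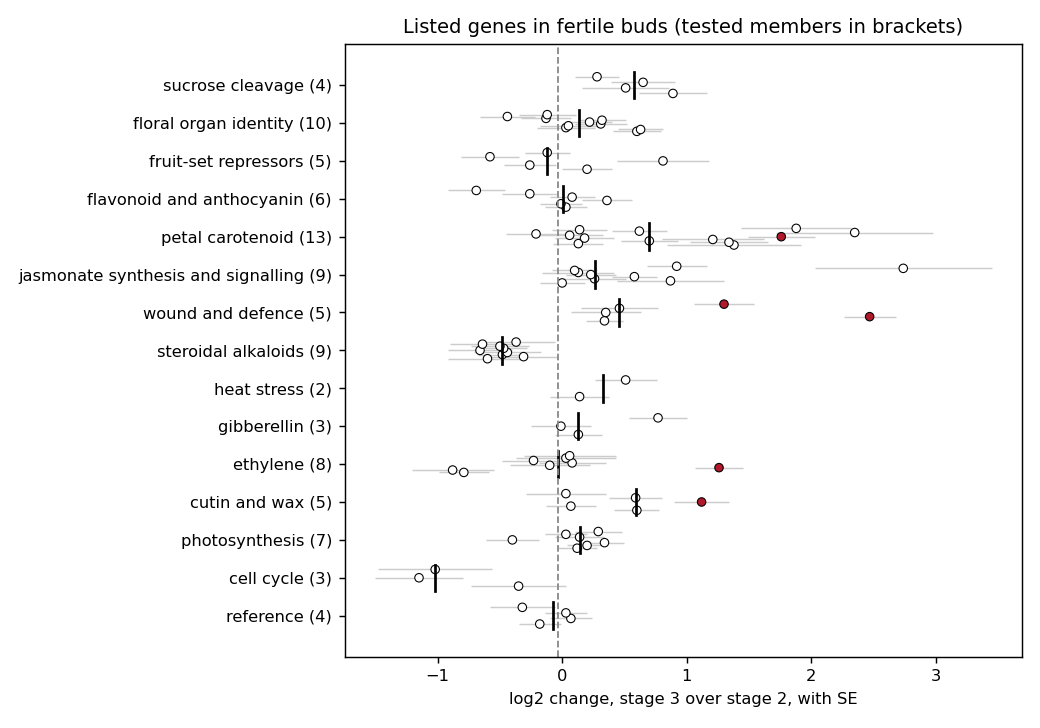
Log2 change from stage 2 to stage 3 in fertile buds (horizontal axis, bars are the SE) for each tested gene with a checked name, by list; red points were called, black ticks are list medians and the dashed line is the median of all tested genes, -0.03. Petal carotenoid genes spread from -0.21 to 2.35, whereas the 9 steroidal alkaloid genes lie between -0.66 and -0.31.

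Outside the lists, the largest rises without overlap were in 2 models without a name in the sources used here. Solyc04g074340 had 5.19, 3.67 and 4.31 CPM at stage 2 and 14.1, 152 and 88.3 CPM at stage 3 (log2 4.14, SE 0.51, edgeR adjusted p = 0.00419). It rests on 10 reads at stage 2. It was not called without replicate 2 of stage 2 (adjusted p = 0.0699), replicate 2 of stage 3 (0.0672), their pair (0.0834), replicate 3 of stage 2 (0.0533) or the block (0.0887). In sterile buds Solyc04g074340 was called higher at stage 3 as well (log2 3.92, SE 0.66, edgeR adjusted p = 0.0496). Solyc03g031490 had 6.49, 0 and 4.31 CPM against 15.3, 40 and 76.2 CPM, which is 8 reads against 76 (log2 3.47, SE 0.64, edgeR adjusted p = 0.0282). Its call was lost without any library of replicates 2 or 3, with adjusted p from 0.11 to 0.331. It was lost too without the block (0.108), in the fit of all 17 libraries (0.143) and in limma-voom (0.0511).

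The same step from stage 2 to stage 3 was measured in male-sterile buds, in libraries that the calls above did not use. There 12 of 11985 genes (0.1%) were called (edgeR), 10 higher and 2 lower, and 5 of the 12 were called in the same direction in fertile buds. At an unadjusted p under 0.05 there were 1221 genes. Of the 125 genes called higher in fertile buds that could be fitted in sterile buds, 117 (93.6%) had a log2 change above 0 there, with a median of 0.69, where a value within 0.005 of 0 counts as neither above nor below. Over all 11241 genes fitted in both lines that share was 51%. Of the 65 genes called lower that could be fitted, 33 (50.8%) were below 0 in sterile buds and 7 were at 0, with a median of -0.08. Over all genes fitted in both lines 47.8% were below 0. Of the 68 lower genes, 35 (51.5%) had a sterile mean of stages 2 and 3 under 10% of their fertile stage 2 mean, which the calls used. Over all tested genes that share was 1.2%. Such genes had little room to fall in sterile buds, so the shares of the higher and of the lower genes cannot be compared directly.

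The difference between the lines in the change from stage 2 to stage 3 was tested over the 12 libraries of both stages, with line by replicate as a block. It passed for 3 of 11985 genes (0.025%) by edgeR, and 706 had an unadjusted p under 0.05. All 3 are among the 68 lower genes, and both tests use the same 6 fertile libraries. Sterile levels of the 3 were low at stages 2 and 3, so a fall of the fertile size could hardly have shown there. TAS14 changed by -6.76 on the log2 scale in fertile buds and by 0.79 (SE 0.39) in sterile buds, a difference of -7.53 (edgeR adjusted p = 2.53e-05). Leaving out any 1 library left it between -7.76 and -7.32, with every adjusted p at or below 0.00451; without the block it was -7.55 with an adjusted p of 0.127.

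Solyc08g076790 had 230, 51.4 and 333 CPM at fertile stage 2 and 3.84, 4 and 6.93 CPM at fertile stage 3, while sterile buds of both stages lay between 3.39 and 7.95 CPM. The fall in fertile buds was 41.1-fold (log2 -5.36, SE 0.35, edgeR adjusted p = 8.43e-05), and the difference between the lines was -5.97 (edgeR adjusted p = 0.0219). That difference did not pass without either library of sterile replicate 1 (adjusted p = 0.295 and 0.289 for stages 2 and 3), of sterile replicate 3 (0.199 and 0.204) or of fertile replicate 3 (0.0631 and 0.0504).

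Solyc02g068400 had 520, 111 and 659 CPM at fertile stage 2 and 30.7, 32 and 45 CPM at fertile stage 3, and 6.79, 3.97 and 7.29 CPM against 27.5, 9.95 and 15.9 CPM in sterile buds. It fell 10.5-fold in fertile buds (log2 -3.39, SE 0.39, edgeR adjusted p = 0.0031, against 0.052 without replicate 3 of stage 2 and 0.0557 without the block), while each sterile pair was higher at stage 3 (log2 1.54, SE 0.63, edgeR adjusted p = 0.418). The difference of -4.97 (edgeR adjusted p = 0.0436) did not pass without any 1 of the sterile libraries (adjusted p from 0.172 to 0.395) or without a library of fertile replicate 3 (0.072 and 0.0693 for stages 2 and 3). For the other genes named here that were called in fertile buds, the difference did not pass where it could be fitted. Solyc01g087180 and Solyc03g031490 could not be fitted. ARG2 had a difference of 2.28 (edgeR adjusted p = 0.288) and CAT1 of 0.17 (0.96). For models with almost no sterile reads the test could decide little. Solyc01g009590 had a difference of -6.64 with an SE of 2.86, and Solyc08g062780 one of -2.30 with an SE of 2.47. Solyc01g010900, at 0 CPM in every sterile library, had one of -7.90 without an SE.

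**Figure D5:**
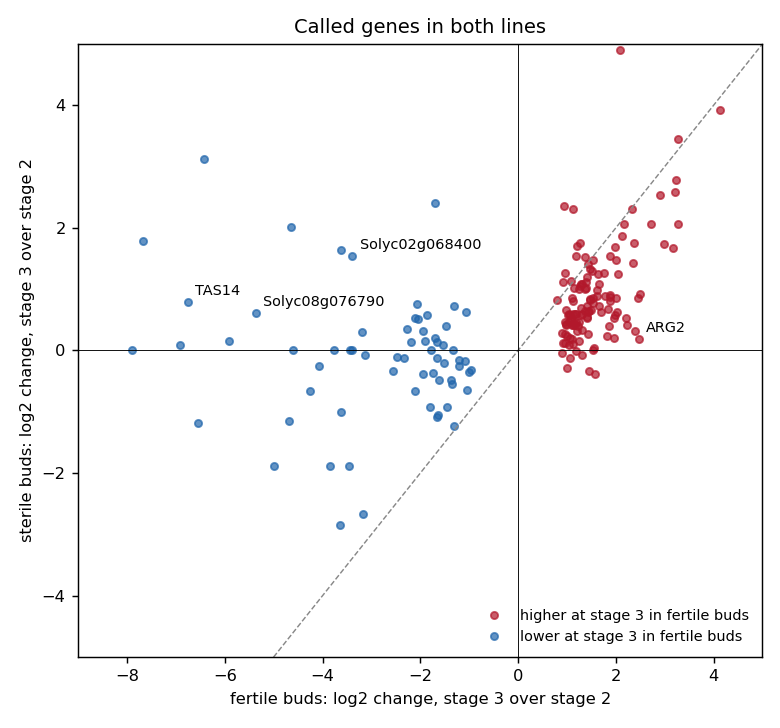
Log2 change from stage 2 to stage 3 in fertile buds (horizontal axis) against the same change in sterile buds (vertical axis) for the 190 called genes that could be fitted in both lines; the dashed line marks equal changes. Of the genes higher in fertile buds (red) 117 of 125 lie above 0 on the vertical axis, while of the genes lower in fertile buds (blue) 33 of 65 lie below it and 7 at it.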

How the data were processed

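The authors deposited, per the file headers, whole-number counts of total and of unique reads for 34727 gene models, with RPKM and gene length. Not given in the sources used here are the aligner, counting program, strandedness and genome build. Of the deposited RPKM values, 0 differed from those computed from the total reads, and 34726 of the lengths are multiples of 3, so the other values, bases per model, are coding lengths as the authors listed them.

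Total counts of the 6 libraries went into edgeR 4.0.16 (R 4.3.3): filterByExpr (11514 genes, holding 94.3% or more of the reads of a library), TMM factors of 0.962 to 1.04, a quasi-likelihood fit with stage and replicate number as terms and 2 residual degrees of freedom, and Benjamini-Hochberg adjustment over all tested genes. The common dispersion was 0.0359. SE is the size of the log2 change over the square root of F. Residuals, centred within each stage, correlated at 0.188, 0.317 and 0.375 for same-numbered libraries, each over 0.1, so the numbers were taken as pairing the libraries. Those of other pairs lay at -0.317 to 0.0123. The centring makes these values offset each other, so the low values of other pairs add no separate evidence. Replicates of a group differed beyond counting noise (chi-square per degree of freedom 3.69 to 7.44). DESeq2 1.42.0 and limma 3.58.1 voom with the block, and the fits without it, were alternatives. The scripts were tested on simulated data.

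A group with 0 reads counts as at most 3 reads, 1.31 CPM at stage 2 and 1.61 CPM at stage 3. Neither the tables nor RefSeq (assembly SLM_r2.1) pairs the identifiers with names. Of 155 listed models, 114 had a recalled name that RefSeq holds on the same chromosome within 5% in gene order; lists count these alone. The text names every tested anther marker, at most 5 called genes per other list, or the 2 most abundant where none was called, and up to 2 unnamed identifiers each way. Added after their values were seen were TAS14, CAT1, LOXC, LOXA, MCPI and CDI. So were the uncalled genes MYB21, CHRC, CRTR-B2, PSY1, PDS, ZISO, TD, ARG1, ACO1, TAP3, CDKB2, JAZ2, GAME4 and GAME18. One gene that this rule takes is not reported here. The members and lists were chosen with earlier results of these data known.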

Additional observations from a re-analysis of the deposited data

Results flagged for a closer look

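The change from stage 2 to stage 3 differed between fertile and sterile buds, by a test of the difference itself over 12 libraries, for 3 genes. TAS14 had a log2 difference of -7.53, fertile minus sterile (edgeR adjusted p = 2.53e-05): it was lower at stage 3 in 3 of 3 fertile pairs, and in sterile buds its log2 change was 0.79. Solyc08g076790 had a difference of -5.97 (edgeR adjusted p = 0.0219) and was lower in 3 of 3 fertile pairs. Solyc02g068400 had a difference of -4.97 (edgeR adjusted p = 0.0436); it was lower in 3 of 3 fertile pairs and higher in 3 of 3 sterile pairs. Sterile levels of all 3 genes were low at stages 2 and 3. They were 1.83 to 41.3 CPM for TAS14, 3.39 to 7.95 CPM for Solyc08g076790 and 3.97 to 27.5 CPM for Solyc02g068400. At stage 2 the sterile means were 12.5, 4.11 and 6.02 CPM in that order, against fertile means of 1258, 205 and 430 CPM. A fall as large as in fertile buds could thus hardly have shown in sterile buds. DESeq2 gave an adjusted p of 2.24e-23 for TAS14, and no DESeq2 value is at hand for the other 2. In limma-voom the adjusted p was 1.16e-05 for TAS14 and 0.0868 for each of the other 2.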

How the results depend on the processing

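Against 194 genes called, 19 were called without the replicate block, 922 with no filter on low counts, 97 by DESeq2 and 32 in a fit of all 17 libraries without the block, 48 to 1095 when 1 library was left out, and 886, 102 and 74 without the pair of replicate 1, 2 or 3. Of the 97 genes called by DESeq2, 89 were among the 194, and of the 922 all 194 were included. The share of called genes that were higher was 47.4% without the block, 50.5% with no filter and 31.2% in the fit of all 17 libraries, against 64.9%. DESeq2 size factors in edgeR (189 genes), unique reads (195), limma-voom (243) and a fit of 12 libraries of both lines (235) stayed within 1.5 times; DESeq2 size factors shifted the median log2 change by 0.01. Of the named genes TAS14, Solyc01g010900 and Solyc08g076790 were called under all 17 alternatives.

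For the difference between the lines, 3 genes were called, against 0 without the replicate block (edgeR, 237 at an unadjusted p under 0.05), 120 with no filter on low counts, 10 by DESeq2, 1 by limma-voom and 1 to 10 when 1 library was left out. It was 1 without either library of sterile replicate 1 or their pair, 7 and 8 without the stage 2 and stage 3 library of fertile replicate 1 and 7 without that pair, and 8 and 10 without those of fertile replicate 2 and 8 without that pair.

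Log2 changes near 0 crossed it in some fits of genes that were not called. With 1 library left out, TAG1 ranged from -0.16 to 0.40, CHS2 from -0.12 to 0.07, F3H from -0.04 to 0.19, LOXD from -0.12 to 0.20 and HsfA1 from -0.04 to 0.34. Without the pair of replicate 1, TAG1 was at -0.15, F3H at -0.03 and LOXD at -0.04; without that of replicate 2, CHS2 was at 0.04; without that of replicate 3, TAG1 was at -0.09, CHS2 at 0.05, LOXD at -0.14 and HsfA1 at -0.06. LOXD was also at -0.12 without the block, -0.02 with no filter and by limma-voom, and -0.11 in the fit of all 17 libraries. The causes were not tested. Depth limits low genes: 5 of 10 anther markers had too few reads to be tested. With 2 residual degrees of freedom, the calls rest on a spread shared across genes. Fits of fertile buds without 1 library or 1 pair had 1 residual degree of freedom.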
